A study of Mus musculus with 2 samples.

Results

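The miR-34 and miR-449 family comprises the genes Mir34a, Mir34b, Mir34c, Mir449a, Mir449b and Mir449c. Its 6 genes were taken by symbol from the 2202 miRNA genes of each deposited table, after Ensembl identifiers had been matched to GENCODE M21, and all 6 were found. The tables come from microRNA sequencing of left cerebral cortex of adult B6CASTF1/J mice (the F1 hybrid of C57BL/6J and CAST/EiJ) aged 18 to 20 months, bought from The Jackson Laboratory, with no treatment and no contrast of age, tissue or genotype. There was 1 group of 2 libraries, numbered as biological replicates, made from total RNA size-selected below 30 nucleotides. The source name and the sex field give female, the free text gives male, and both libraries carry 1 donor identifier, so the spread between them may be technical.

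miRNAs are short RNAs cut from a hairpin precursor, and they repress messenger RNAs that pair with the seed, the stretch near their 5′ end. miR-34a is a direct transcriptional target of the tumour suppressor p53 and represses genes of the cell cycle and of survival, such as Cdk6 and Bcl2. In neural tissue it has been studied in neuronal differentiation and ageing. miR-34b, miR-34c and the miR-449 miRNAs are known from multiciliated epithelia, where they act together in the formation of motile cilia.

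The mature sequences are shown because a shared seed is what makes the 3 loci 1 family. They come from RefSeq (GRCm38.p6, the assembly of mm10), whose table held entries for 5 of the 6 genes, and are written 5′ to 3′ with the seed, bases 2 to 8, in capitals.
mmu-miR-34a-5p (chr4:150068473-150068494, plus strand): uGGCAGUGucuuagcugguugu
mmu-miR-34b-5p (chr9:51103610-51103632, minus strand): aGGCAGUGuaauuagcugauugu
mmu-miR-449a-5p (chr13:113037549-113037570, plus strand): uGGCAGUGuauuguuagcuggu
mmu-miR-449c-5p (chr13:113036008-113036028, plus strand): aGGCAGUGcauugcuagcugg
mmu-miR-34b-3p (chr9:51103574-51103595, minus strand): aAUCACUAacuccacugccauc
mmu-miR-34c-3p (chr9:51103044-51103065, minus strand): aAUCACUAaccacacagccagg

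The seed GGCAGUG was found in 4 of the 1738 mature miRNAs of the RefSeq table, and these were the 4 listed 5p miRNAs. mmu-miR-34c-5p and Mir449b are named here without a sequence and are not part of that count. Searched on the RNA strand, the same letters were present in all 5 family hairpins of the table, that of Mir34c included, and in 17 of its 1005 hairpins (1.69%). Identity was counted from base 1 without gaps, so 1 extra base in a miRNA puts all later bases out of register. Counted this way, miR-449a-5p and miR-449c-5p were identical at 18 of 21 positions, and miR-34a-5p and miR-449a-5p at 15 of 22. For miR-34a-5p and miR-34b-5p the count was 11 of 22. These differ in length, 22 and 23 bases, and share a run of bases after the seed that starts at different positions. The counts therefore do not rank the 5p miRNAs by likeness. The seed AUCACUA of the opposite arm was shared by miR-34b-3p and miR-34c-3p alone among the 1738, and these arms were identical at 17 of 22 positions.

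Reads were counted per hairpin gene, so the 5p and 3p miRNAs of a gene could not be told apart. The hairpin of Mir34a, the gene with most reads, is shown with both mature arms in capitals.
Mir34a hairpin (chr4:150068454-150068555, plus strand): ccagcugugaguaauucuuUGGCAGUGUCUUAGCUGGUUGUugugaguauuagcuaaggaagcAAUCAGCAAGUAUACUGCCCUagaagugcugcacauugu

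No family hairpin shared a stretch of 20 nucleotides with another annotated miRNA gene on either strand, whereas 102 of the 409 expressed miRNA genes (24.9%) did. The longest stretch shared between 2 members was 11 nucleotides, and the longest shared with any other miRNA gene was 14, between Mir449a and Mir679. Matches with mismatches, or to places outside miRNA genes, were not tested.

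The 6 genes lie at 3 loci (mm10, GENCODE M21). Mir34a (ENSMUSG00000065493.1) lies on chromosome 4 at 150068454 to 150068555 on the plus strand. Its last 17 bases overlap the single exon of Gm37795, an unconfirmed transcript on the same strand, and the nearest protein-coding gene, Gpr157, begins 18809 bases away. Mir34b (ENSMUSG00000065492.1; 51103562 to 51103645) and Mir34c (ENSMUSG00000065587.1; 51103034 to 51103110) lie on the minus strand of chromosome 9 with 451 bases between them, Mir34b first in the direction of transcription. Both are within an intron of Btg4, which is read from the opposite strand. Mir449c (ENSMUSG00000076146.1; 113035983 to 113036091), Mir449b (ENSMUSG00000078027.1; 113037419 to 113037498) and Mir449a (ENSMUSG00000065575.1; 113037534 to 113037624) lie in that order within 1642 bases on the plus strand of chromosome 13. All 3 are in an intron of Cdc20b, on the strand of that gene.

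**Figure D1:**
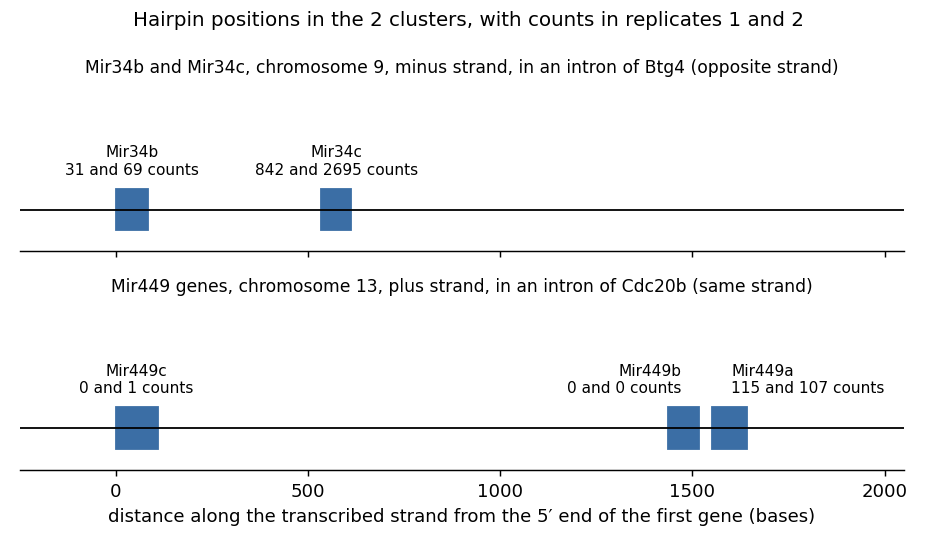
Hairpins (boxes, to scale) of the chromosome 9 and chromosome 13 clusters against the distance in bases along the transcribed strand from the 5′ end of the first gene, with sense counts in replicates 1 and 2. Mir34c had 842 and 2695 counts against 31 and 69 for Mir34b, and Mir449a had 115 and 107 counts while Mir449b and Mir449c had at most 1.

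The libraries held 5166667 and 4459993 sense counts of miRNA genes in replicates 1 and 2. Levels are CPM, the sense count divided by this total and multiplied by 1000000. The 409 genes that reached 2 CPM in each library are called expressed. Where no read was counted, the limit is set at 3 counts, which is 0.581 CPM for replicate 1 and 0.673 CPM for replicate 2. Intervals and limits cover counting error only, as no molecular identifiers are stated. Of the 15 neuron miRNA genes used to check the tissue, 12 were expressed, led by Mir128-1 (17218 ± 4441 CPM, SD, n = 2), Mir137 (6618 ± 2001 CPM) and Mir138-1 (4765 ± 295.4 CPM). The 3 Mir124a genes had at most 21 counts in a library, and 14 of the 15 genes hold 20 nucleotides in a row that also occur in another miRNA gene, which leaves their counts uncertain.

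Of the family, 4 of 6 genes were expressed and together they were dominated by Mir34a. The family summed to 2648 CPM (13682 counts) in replicate 1 and 2077 CPM (9262 counts) in replicate 2, a mean of 2362 ± 404.1 CPM (SD, n = 2). This was 0.265% and 0.208% of all sense counts. The 4 expressed genes stood in the same order in both libraries, Mir34a first, then Mir34c, Mir449a and Mir34b. CPM was not divided by length, since short reads from a hairpin do not increase with its length.

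Mir34a was at 2457 CPM in replicate 1 (12694 counts; 95% exact interval 2414 to 2500) and 1433 CPM in replicate 2 (6390 counts; 1398 to 1468). Its mean was 1945 ± 724.2 CPM, well above the median of 88.9 CPM over expressed genes, and it ranked 66 of 2202 genes. It stood above every other member in both libraries. Mir34a reads outnumbered those of Mir34c 15.1-fold in replicate 1 (95% exact interval 14.1 to 16.2) and 2.37-fold in replicate 2 (2.27 to 2.48).

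Mir34c was at 163.0 CPM in replicate 1 (842 counts; 95% exact interval 152.1 to 174.4) and 604.3 CPM in replicate 2 (2695 counts; 581.7 to 627.5). The mean of 383.6 ± 312.0 CPM therefore describes neither library: leaving out replicate 1 or replicate 2 moved it over 1.5-fold, to 604.3 or 163.0 CPM. Its rank was 174 in replicate 1 and 107 in replicate 2.

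Mir34b, its neighbour on chromosome 9, was far lower. It was at 6.0 CPM in replicate 1 (31 counts; 95% exact interval 4.08 to 8.52) and 15.5 CPM in replicate 2 (69 counts; 12.0 to 19.6), with a mean of 10.7 ± 6.70 CPM. At a stricter threshold of 10 CPM it would not count as expressed, as replicate 1 lies below it. Mir34c reads outnumbered those of Mir34b 27.2-fold in replicate 1 (19.0 to 40.2) and 39.1-fold in replicate 2 (30.8 to 50.4).

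Mir449a was the one miR-449 gene with more than 1 read. It was at 22.3 CPM in replicate 1 (115 counts; 95% exact interval 18.4 to 26.7) and 24.0 CPM in replicate 2 (107 counts; 19.7 to 29.0), a mean of 23.1 ± 1.23 CPM. It lay above Mir34b in both libraries, 3.71-fold in counts in replicate 1 (2.48 to 5.71) and 1.55-fold in replicate 2 (1.14 to 2.13). Mir449b had 0 counts in both libraries and Mir449c had 0 counts in replicate 1 and 1 in replicate 2. The observed Mir449a count was 38.3-fold the limit of 3 counts for Mir449b in replicate 1 and 35.7-fold in replicate 2, although only 35 bases separate the hairpins. These folds leave out the counting error of Mir449a. Mir449b and Mir449c could not be ordered at this depth.

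**Figure D2:**
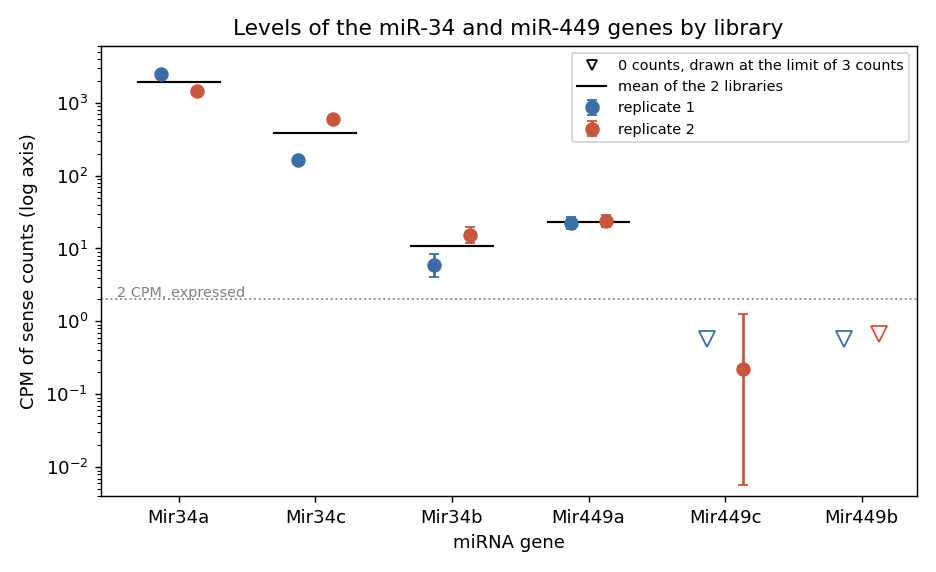
CPM of sense counts (log axis) for each family gene in replicate 1 and replicate 2, with 95% exact intervals as bars, the mean of both libraries as a black line for expressed genes, and open triangles for 0 counts drawn at the limit of 3 counts. Mir34a was highest in both libraries, the points of Mir34c lie at 163.0 and 604.3 CPM, and the points of Mir449a lie at 22.3 and 24.0 CPM.

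The libraries were then set against each other gene by gene. Mir34a was higher in replicate 1 while Mir34b and Mir34c were higher in replicate 2, and Mir449a did not pass the test in either direction. For all 438 genes with at least 20 counts in the libraries together, the split of the counts was compared with that of the TMM-scaled totals by an exact binomial test, two-sided, and p-values were adjusted by Benjamini-Hochberg over all of them. TMM, a scaling by the trimmed mean of gene ratios, shifted all log2 ratios by 0.13 from those on sense totals. The test compares these libraries, not conditions, and knows counting noise alone: it passed 294 of 438 genes (67.1%) at an adjusted p of 0.05. In the family 3 of the 4 genes tested passed, a share near that background.

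Mir34a had a log2 ratio (replicate 2 to replicate 1, TMM-scaled) of -0.65, so it was 1.57-fold higher in replicate 1 (adjusted p = 8.52e-196, exact binomial test). Of the 409 expressed genes 105 had a lower ratio, which places Mir34a within the bulk of genes. Mir34c had a log2 ratio of 2.02, 4.06-fold higher in replicate 2 (95% exact interval 3.75 to 4.39), with an exact p too small for the computation to tell from 0. Of the 409 expressed genes 5 had a higher ratio. Mir34b had a log2 ratio of 1.48, 2.80-fold higher in replicate 2 (1.82 to 4.46; adjusted p = 1.71e-06, exact binomial test), and 12 expressed genes had a higher ratio. Mir449a had a log2 ratio of 0.24, a 1.18-fold difference with an interval of 0.898 to 1.55 (adjusted p = 0.282, exact binomial test), and 145 expressed genes had a higher ratio. The 4 ratios had a median of 0.86 against -0.08 over the 438 genes tested.

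Whether these differences exceed the spread between replicates cannot be tested, since the 2 libraries are the only replicates. Comparing the libraries by the exact test of edgeR, with a common coefficient of variation of 44.9% estimated from 404 genes of the same libraries, gave adjusted p-values of 0.684 for Mir34c and 1 for Mir34a, Mir34b and Mir449a, and passed 2 of 438 genes (0.457%). As that spread comes from the difference under test, few genes can pass, and nothing is read from these values.

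**Figure D3:**
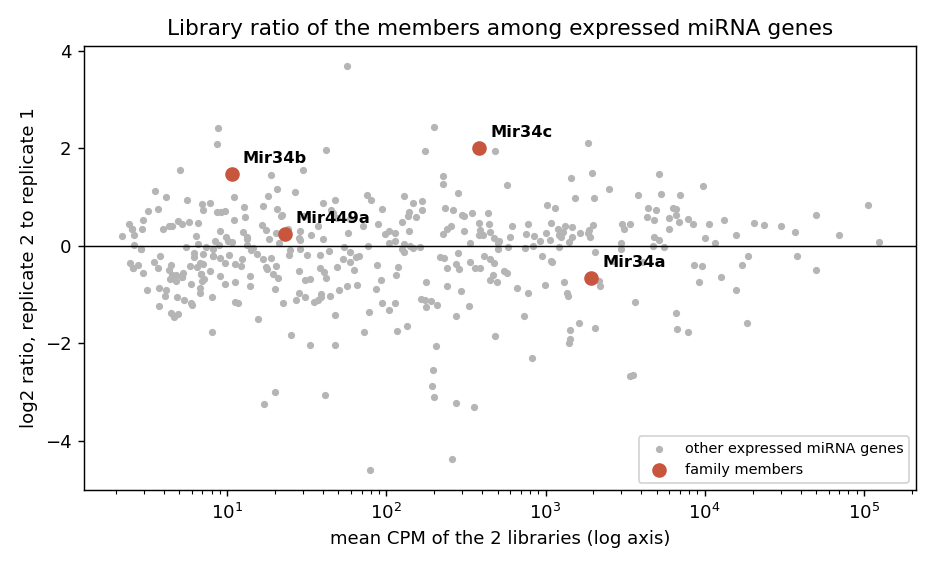
TMM-scaled log2 ratio of replicate 2 to replicate 1 against mean CPM (log axis) for the 409 expressed miRNA genes, with the 4 expressed family genes in red. Mir34c (2.02) and Mir34b (1.48) lie near the upper edge of the cloud, while Mir34a (-0.65) and Mir449a (0.24) lie within it.

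With Mir34a higher in one library and Mir34c in the other, the make-up of the family differed between libraries. Shares within the family do not depend on library scaling, and 3 of them were compared with two-sided Fisher exact tests of the counts, which again compare libraries and know counting noise alone. Mir34a supplied 92.8% of family counts in replicate 1, with a 95% exact interval of 92.3% to 93.2%, against 69.0% in replicate 2 (68.0% to 69.9%). The exact p for this difference was too small to tell from 0. Mir34c took 6.15% and 29.1%, Mir34b 0.227% and 0.745%, and Mir449a 0.841% and 1.16%. Mir449a was 11.6% of the counts of Mir449a, Mir34b and Mir34c in replicate 1 (9.71% to 13.8%) and 3.73% in replicate 2 (3.06% to 4.49%; Fisher exact test adjusted over the 3 shares, p = 1.16e-17). Counts of Mir449a and of the Mir34b and Mir34c cluster were in different proportion in the libraries, and the cause was not tested. Passing is common for such a test, which also passed 74.1% of neighbouring gene pairs (below).

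**Figure D4:**
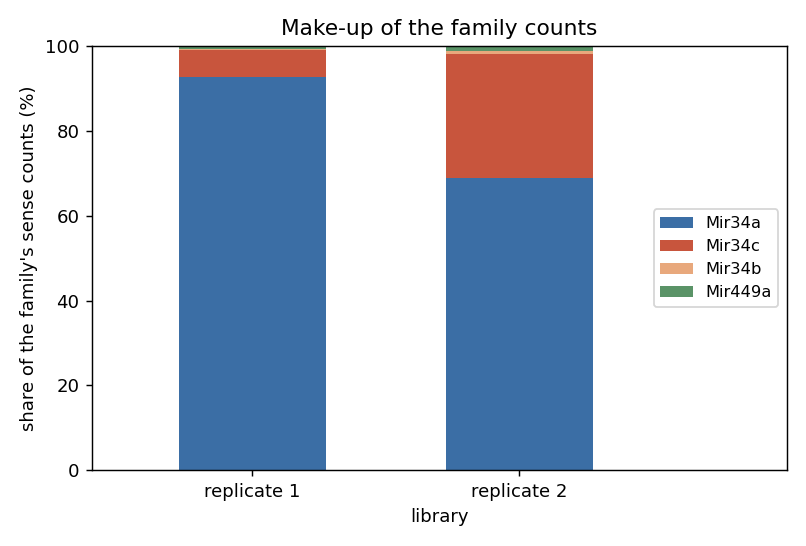
Share of the family's sense counts (%) held by each gene in replicate 1 (13682 counts) and replicate 2 (9262 counts), as stacked bars. Mir34a fills 92.8% of the bar in replicate 1 and 69.0% in replicate 2, and Mir34c fills 6.15% and 29.1%.

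Within the chromosome 9 cluster the shares in the libraries lay closer together in percent, both close to their upper bound. Mir34c was 96.5% of Mir34b plus Mir34c counts in replicate 1 (842 of 873; 95% exact interval 95% to 97.6%) and 97.5% in replicate 2 (2695 of 2764; 96.8% to 98.1%), and the difference did not pass (adjusted p = 0.0977, Fisher exact test). On counts without strand it did (p = 0.0199, Fisher exact test), because 5 antisense reads of replicate 1 are then added to Mir34b. For comparison, 58 pairs of expressed miRNA genes follow each other on 1 strand within 1000 bases, a set chosen after the values were seen. The same test passed 43 of these pairs (74.1%, adjusted over the pairs). Passing depends on the counts of a pair, and Mir34b had 31 and 69 counts in replicates 1 and 2. The levels of Mir34b and Mir34c differed by 5.16 on the log2 scale, against a median of 2.95 over the pairs, and 13 pairs differed more. Their library ratios differed by 0.54, against a median of 0.68, and 35 pairs differed more. In 36 of the 58 pairs, Mir34b and Mir34c among them, both neighbours had their ratio on the same side of 0.

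**Figure D5:**
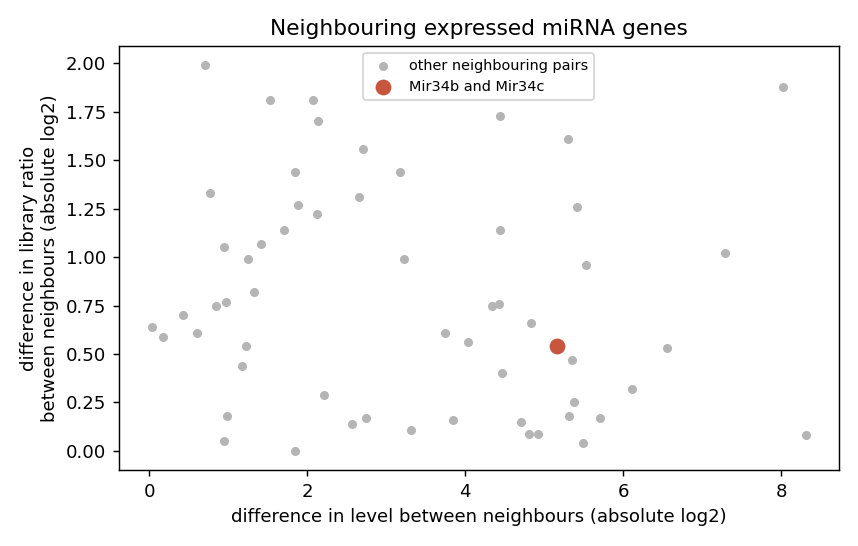
Absolute log2 difference in library ratio against absolute log2 difference in mean level for 58 pairs of neighbouring expressed miRNA genes, Mir34b and Mir34c in red. The red point lies at 5.16 in level, to the right of the median pair (2.95), and at 0.54 in ratio, below the median pair (0.68).

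The genes most like each expressed member were found by distance on log2(CPM + 1) over the 2 libraries, which describes level and library ratio together and no more. Nearest to Mir34a were Mir676 (distance 0.226), Mir874 (0.239) and Mir219a-2 (0.406), an oligodendrocyte miRNA. Nearest to Mir34c were Mir145a (0.483), a smooth muscle miRNA at 211.7 and 745.7 CPM in replicates 1 and 2, Mir421 (0.733) and Mir380 (0.949). Mir34b lay nearest to Gm24270 (0.336), Mir1968 (0.497) and Mir499 (0.525), and Mir449a to Mir193a (0.100), Mir1264 (0.210) and Gm49347 (0.253). Of these, Mir219a-2, Mir380 and Gm24270 have such a run of 20 nucleotides in common with another gene, and their levels are uncertain.

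Markers of other cell types stand beside the family as follows, in tissue where fewer cells of a type and less RNA per cell cannot be told apart. In the choroid plexus and ciliated epithelium list, the genes outside the family were Mir204, abundant in choroid plexus, and Mir211, its paralog. Mir204 was at 532.6 and 467.0 CPM in replicates 1 and 2, with a log2 ratio of -0.06 that did not pass (adjusted p = 0.206, exact binomial test). Mir211 had 11 and 7 counts, too few to be tested. The whole list of 7, its other genes being family members, had 4 genes expressed and summed to 726.0 and 1113 CPM. Mir34b and Mir34c were the 2 genes that passed towards replicate 2, where 32.6% of all tested genes did, and Mir449b was at 0. Both passing genes are family members, so they are no markers independent of the family. The mural cell genes Mir143 (log2 ratio 1.04) and Mir145a (1.95) both passed in the direction of Mir34c, and summed to 5077 and 9896 CPM. In the epithelium list 6 of 7 genes passed towards replicate 1, where 34.5% of all tested genes did, and 1 towards replicate 2. That list summed to 1555 and 398.0 CPM, led by Mir429 (log2 ratio -3.23), Mir200b (-4.37) and Mir200c (-3.11). Of the 6 striated muscle genes 5 had no count. Each of these 5 has such a run of nucleotides in common with another miRNA gene, so absence cannot be read from their counts. The remaining gene, Mir206, has no such run and passed towards replicate 2 (log2 ratio 1.97), at 18.2 and 65.5 CPM. The erythroid genes summed to 79.2 and 52.7 CPM, with Mir144 (log2 ratio -1.17) passing towards replicate 1 and Mir451a (-0.11) not passing. Mir451a also has such a run, and its count is uncertain. The part of these cell types in the family's values was not tested.

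Other miRNAs have been linked to p53. Of 9 such genes outside the family 7 were expressed and tested. Towards replicate 2 passed 3 of the 7, where 32.6% of all tested genes did, and towards replicate 1 passed 3, where 34.5% did. Those that passed towards replicate 2 include Mir143 and Mir145a, which are also the mural cell genes given above. The list had a median log2 ratio of -0.38 against -0.08 over all genes tested. Mir143 and Mir107 (log2 ratio 1.17) were higher in replicate 2. Mir15a (log2 ratio -1.44), of the miR-15 and miR-16 cluster that targets Bcl2, was higher in replicate 1, the direction of Mir34a. Mir16-1 (log2 ratio -0.38), of the same cluster, and Mir192 (-1.16) also passed towards replicate 1. Mir107 and 3 others of the 9 have a run of 20 nucleotides in common with another gene, and their counts are uncertain.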

How the data were processed

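The deposited tables hold raw read counts per miRNA gene, 1 table per library, made by the authors with build mm10 and GENCODE M21, per the file headers of the accompanying notes; the aligner and counter are not stated there or in the labels. Whether reads carrying CAST variants against mm10 were lost was not tested. Of the 3 count columns, the stranded column with the larger total was taken as sense. The 4 lines that name no gene (65.2% and 65.1% of reads in replicates 1 and 2) were left out of totals.

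Total sense counts were 5166667 and 4459993. CPM, exact (Clopper-Pearson) 95% intervals, and binomial and Fisher tests were computed in SciPy 1.17.1. TMM factors and the exact test with common dispersion came from edgeR 4.0.16, and alternative size factors from DESeq2 1.42.0. Ratios add 0.5 to each count. The scan was tested on simulated data with counting noise alone. They held no further spread between libraries, so that trial says nothing of how the scan behaves where there is such spread. With 1 group there is no contrast of conditions.

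Members and lists were chosen with earlier results of these data known. All 6 members are named, with the 3 genes nearest to each expressed member and the 3 highest genes of each list; other genes were named after their values were seen. Alternatives were other totals, size factors, count column, thresholds, and leaving out a library.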

Additional observations from a re-analysis of the deposited data

Results flagged for a closer look

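Reads other than sense counts exceeded 3 counts in these measures. Mir34b had 5 antisense counts in replicate 1 and 0 in replicate 2, while the other 5 genes had no antisense count in either library. Reads with several places in the genome, which the tables list apart from genes, numbered 6203588 in replicate 1 and 5928954 in replicate 2. Their share that comes from the family cannot be read from the tables.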

How the results depend on the processing

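Of 64 values recomputed under alternatives, 54 kept their direction and side of the threshold or moved by less than the spread between libraries. None reversed. Levels and shares recomputed without 1 library were bound to be among the 54, which says nothing of their stability. The mean of 2 libraries always lies within their SD of either one. Per all reads of the table, which is a larger denominator, the family summed to 823.1 CPM, Mir34a to 677.5, Mir34b to 3.74, Mir449a to 8.06 and Mir34c to 133.8 CPM, the last within its SD of 312.0 CPM. On counts without strand Mir449a was at 25.03 CPM, and Mir34c was 96.7% of Mir34b plus Mir34c, a difference between libraries that then passed. With edgeR's common spread, estimated from the same 2 libraries, 2 genes passed, Mir1247 and Mir200b (31 at an unadjusted p under 0.05), and the log2 ratios of Mir34a (-0.65), Mir34b (1.49) and Mir34c (2.02) did not, from which nothing is read. Without replicate 1 or replicate 2, the family level ranged from 2077 to 2648 CPM, Mir34a from 1433 to 2457, Mir34b from 6.0 to 15.5, Mir34c from 163.0 to 604.3 and Mir449a from 22.3 to 24.0 CPM, and the number of expressed members stayed at 4. With 2 libraries a ratio has no value when 1 is left out. No paired analysis was possible because there is 1 group. Depth limits Mir449b and Mir449c, which stood at or below 3 counts.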
